A study of Mus musculus with 24 samples.

Results

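The aminoacyl-tRNA synthetases of the cytosol were followed through 10 genes: Aars, Gars, Sars, Nars, Wars, Mars1, Iars, Lars, Eprs and Yars. Each probe whose transcript accession the RefSeq gene table assigns to one of these genes was taken, which gave 16 probes. All 16 passed the filter on dim signals, out of 38115 probes that passed, and the 10 genes are 10 of the 16935 named genes with a probe that passed. The rule takes genes by name and uses no measured value, although the genes were proposed with earlier results of these data known. Where a gene has several probes, counts of genes use its brightest probe by mean level over all arrays.

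The samples were total RNA of mouse cerebellum at postnatal day 28, from C57BL/6 mice, on 24 single-colour (Cy3) Agilent arrays. The KO mice had lost Derlin-1 or Derlin-2 through a Cre recombinase under the nestin promoter. Nestin-Cre acts in cells of the neural lineage, so neurons, astrocytes and oligodendrocytes can lose the gene and microglia, which come from another lineage, do not. Controls were Derlin-1 flox/flox or Derlin-2 flox/flox mice without Cre, so both carried the floxed allele and the KO mice alone also carried Cre. 4-Phenylbutyrate (4PBA), at 200 mg/kg, or water as vehicle was given into the abdominal cavity daily from postnatal day 14 to day 28.

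The 24 arrays form 12 groups of 2 on 3 slides of 8. A first slide holds Derlin-1 controls and KO mice given vehicle or 4PBA, with replicates 1 and 2 (the numbered series). A second slide holds the same 4 groups of the Derlin-2 line. The last slide, scanned on another day, holds Derlin-1 controls and KO mice with and without 4PBA, with replicates a and b (the lettered series); its arrays without 4PBA name no vehicle and are called untreated here. Within each slide the controls sit in the first columns, the KO arrays in the last, the arrays without 4PBA in row 1 and those with 4PBA in row 2. Position on the slide and group cannot be told apart. The labels do not say whether the 2 arrays of a group are separate animals, so p-values measure the spread between arrays, which may be technical.

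An aminoacyl-tRNA synthetase charges a tRNA with its amino acid, the step that gives the ribosome its substrates. Eprs (glutamate and proline), Iars (isoleucine), Lars (leucine) and Mars1 (methionine) are held with several other synthetases in the multisynthetase complex, around scaffold proteins. Aars (alanine), Gars (glycine), Nars (asparagine), Sars (serine), Wars (tryptophan) and Yars (tyrosine) work outside that complex. When eIF2alpha is phosphorylated, as happens through the kinase PERK when unfolded protein builds up in the endoplasmic reticulum (ER), translation of the transcription factor ATF4 rises, and ATF4 is known to raise transcription of amino acid metabolism genes and of many cytosolic synthetases. Derlin-1 and Derlin-2 are ER membrane proteins that help move misfolded proteins out of the ER for degradation. Wars is known in addition as an interferon-inducible gene.

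Promoters were taken from RefSeq, build GRCm38.p6, as the 250 bases before the annotated start, and 7 of the 10 members were matched. They are shown because the members below move together and ATF4 with its partners reads an element of 8 letters, TGATGNAA. That element was searched on both strands and is printed in capitals where it was found. The Aars promoter lies at chr8:111033592-111033841 on the + strand, the Gars promoter at chr6:55037751-55038000 on the + strand and the Mars1 promoter at chr10:127311787-127312036 on the - strand.
Aars: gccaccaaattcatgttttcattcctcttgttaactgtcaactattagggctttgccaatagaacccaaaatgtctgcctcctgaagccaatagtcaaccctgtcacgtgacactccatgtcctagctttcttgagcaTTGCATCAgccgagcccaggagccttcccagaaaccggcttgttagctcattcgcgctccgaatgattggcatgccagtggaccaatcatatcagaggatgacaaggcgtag
Gars: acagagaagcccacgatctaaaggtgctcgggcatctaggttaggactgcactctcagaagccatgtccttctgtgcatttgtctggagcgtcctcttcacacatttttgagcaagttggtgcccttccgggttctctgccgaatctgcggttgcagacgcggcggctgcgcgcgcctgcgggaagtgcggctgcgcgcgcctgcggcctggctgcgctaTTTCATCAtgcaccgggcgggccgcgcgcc
Mars1: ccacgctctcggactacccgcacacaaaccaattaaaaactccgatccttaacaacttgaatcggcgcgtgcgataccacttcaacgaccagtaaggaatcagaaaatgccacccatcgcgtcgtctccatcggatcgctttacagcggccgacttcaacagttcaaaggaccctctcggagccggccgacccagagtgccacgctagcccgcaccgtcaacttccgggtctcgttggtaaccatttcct
Aars holds the match TTGCATCA, whose first base lies 112 bases before the start, and Gars holds TTTCATCA, 30 bases before it. Mars1, the gene with the largest difference in Derlin-1 KO below, holds none in these bases. In these 250 bases 2 of the 7 matched members hold the element, Aars and Gars. Among all 32851 RefSeq promoters of the same length, 3.45% hold the element. With the 50 bases after the start added, 4 of the 7 matched members hold it: Yars has TGATGCAA 4 bases after the start, Iars has TTGCATCA 8 bases after it, and Aars has a second match, TTTCATCA, 10 bases after it. Among other cytosolic synthetases searched, 1 of 7 holds it (Tars, TTGCATCA, 15 bases before the start), against 3.97% of all windows of 300 bases. Synthetases on a chromosome set aside by rule were not searched, members included, while the shares over all promoters and windows include that chromosome. The ER stress element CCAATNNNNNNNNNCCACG, read by ATF6, was found in none of the 7 members, and in 0.113% of all promoters of 250 bases. These matches describe letters in the windows and are no evidence of binding.

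Between 57.7% and 68.4% of spots were well above background on each array, and no spot was saturated. Levels are the log2 processed signal minus the 75th percentile of the array, which ranged from 600.8 to 801 intensity units; a level higher by 1 is a doubling. Levels of different probes are not compared, because probes differ in brightness. Markers of granule neurons (9 of 9) and Purkinje cells (9 of 9) were well above background on every array, 2 neuron types that define the cerebellum. Within groups, the 2 arrays correlated at r of 0.985 to 0.995 over the probes well above background on every array. Dimmer probes did not enter these correlations. No pair of arrays held identical values.

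Both knockouts were checked at the targeted gene. The single Derl1 probe read 1.28 to 1.52 on the numbered Derlin-1 arrays without 4PBA, KO and control alike. On the lettered slide it read 1.78 and 1.40 in untreated controls, 0.68 on KO a and 1.39 on KO b, so the 2 KO arrays were unlike each other. Its difference in Derlin-1 KO without 4PBA was -0.33 (SE 0.15, adjusted p = 0.248). Whether that probe lies in the deleted part is not given in the sources used here, so it does not check the Derlin-1 labels. The brighter Derl2 probe read 1.96 to 2.14 on the 4 Derlin-2 control arrays, and 1.08, 0.73 and 0.80 on 3 of the 4 Derlin-2 KO arrays. On the fourth, the array labelled Derlin-2 KO vehicle 1, it read 2.30, above every control of the line, so that array goes against its label.

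A second array stood apart from its group. On Derlin-1 KO 4PBA array b of the lettered series, the mean level of 13 genes of the integrated stress response was -0.20 relative to the untreated controls of its slide, against 1.1 to 1.6 on the other 7 Derlin-1 KO arrays. Trib3, a stress-induced pseudokinase, read -1.57 there and 1.59 on the other array of its group. The microglia markers showed the same, with -0.17 there and 0.81 to 1.07 on the other Derlin-1 KO arrays. Results on the 10 genes that rest on either array are given with and without both.

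Without 4PBA, 9 of the 10 synthetase genes rose in Derlin-1 KO cerebellum, by 1.37 to 1.61 times, and Wars was the exception. The comparison averages the KO effect of the numbered and the lettered series with equal weight. Across all probes tested, 4.94% passed the threshold of adjusted p under 0.05 in this comparison, and 2.4% passed it as higher. The median difference of the 10 genes was 0.53 on the log2 scale, beside -0.01 over all genes tested. In 9 genes the KO arrays lay above the controls of their own slide without overlap, in both series, a pattern that 9.28% of all probes showed. The number of all probes called, 1881, was 404 without lettered KO a and 3243 without lettered KO b, so the share to read the members against moved with single arrays.

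Among the synthetases of the multisynthetase complex, Mars1 gave the largest difference. Its levels were 0.81 and 0.76 in numbered controls against 1.37 and 1.13 in numbered KO, and 0.75 and 1.05 in lettered controls against 1.90 and 1.73 in lettered KO. All 4 KO arrays lay above all 4 controls, and the difference was 0.69 (SE 0.14, 1.61-fold, limma adjusted p = 0.015). Methionyl-tRNA synthetase also supplies the initiator tRNA that starts each protein.

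Iars read 2.25 and 2.01 in numbered controls, 2.68 and 2.38 in numbered KO, 2.42 and 2.73 in lettered controls and 3.06 and 3.43 in lettered KO. Controls of the lettered series lay as high as KO arrays of the numbered series, while within each slide the groups did not overlap, and the difference was 0.53 (SE 0.13, 1.45-fold, adjusted p = 0.035). For Lars, which also acts as a leucine sensor, the controls read 2.70 and 2.62 in the numbered and 2.48 and 2.49 in the lettered series. The Lars levels in KO were 3.17 and 3.0, and 3.24 and 3.08. Every KO array was above every control, by 0.55 (SE 0.09, 1.47-fold, adjusted p = 0.0072), and the second Lars probe gave 0.51 (adjusted p = 0.044).

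Eprs carries 2 synthetase activities in 1 protein, and 4 probes measured it. Its brightest probe read 3.30 and 3.25 in numbered controls, 3.73 and 3.57 in numbered KO, 3.43 and 3.32 in lettered controls, and 3.94 and 3.98 in lettered KO. The groups did not overlap, and the difference was 0.48 (SE 0.08, 1.39-fold, adjusted p = 0.0079). The other Eprs probes gave 0.47, 0.58 and 0.61, and all 4 passed the threshold.

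Of the synthetases outside the complex, Aars read 4.11 and 4.06 in numbered controls and 4.59 and 4.43 in numbered KO. In the lettered series Aars read 4.25 and 4.28 in controls and 4.98 and 4.96 in KO. The lowest KO array was above the highest control, and the difference was 0.57 (SE 0.11, 1.48-fold, adjusted p = 0.014). Gars, the glycyl enzyme, read 5.76 and 5.88 in numbered controls, 6.28 and 6.05 in numbered KO, 5.72 and 5.57 in lettered controls and 6.14 and 6.27 in lettered KO. Its KO arrays were likewise all higher, by 0.46 (SE 0.10, 1.37-fold, adjusted p = 0.024), the smallest difference of the 9.

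Nars, whose product uses the asparagine made by Asns, read 3.08 and 2.99 in numbered controls against 3.53 and 3.35 in KO. The lettered Nars levels were 2.97 and 3.19 in controls against 3.72 and 3.81 in KO. The difference was 0.55 (SE 0.12, 1.46-fold, adjusted p = 0.023). Sars read 4.39 and 4.40 against 4.89 and 4.79 in the numbered series, and 4.80 and 4.63 against 5.30 and 5.29 in the lettered series. The lettered Sars controls reached the numbered KO level, and within each slide the groups were apart, with a difference of 0.51 (SE 0.12, 1.43-fold, adjusted p = 0.031).

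Yars read 2.53 and 2.55 in numbered controls and 3.05 and 2.89 in numbered KO, then 2.91 and 2.98 in lettered controls and 3.54 and 3.58 in lettered KO. The lettered controls overlapped the numbered KO arrays, and within each slide the groups were apart. Its difference was 0.52 (SE 0.12, 1.43-fold, adjusted p = 0.028). A second, dimmer Yars probe, above background on 23 of the 24 arrays, gave 0.56 and did not pass (adjusted p = 0.057).

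Wars read 4.81 and 4.75 in numbered controls, 4.89 and 4.75 in numbered KO, 4.78 and 4.71 in lettered controls, and 4.70 and 4.83 in lettered KO. KO and control arrays overlapped on both slides. The difference was 0.03 (SE 0.08, 95% interval -0.14 to 0.20, adjusted p = 0.88), and the second Wars probe gave 0.10 (adjusted p = 0.70). The upper end of the Wars interval lay below the smallest estimate of the other 9 genes, and the difference between genes was not tested. Interferon-stimulated genes, the class Wars is known to share induction with, rose in 9 of 12 on the same arrays.

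**Figure D1:**
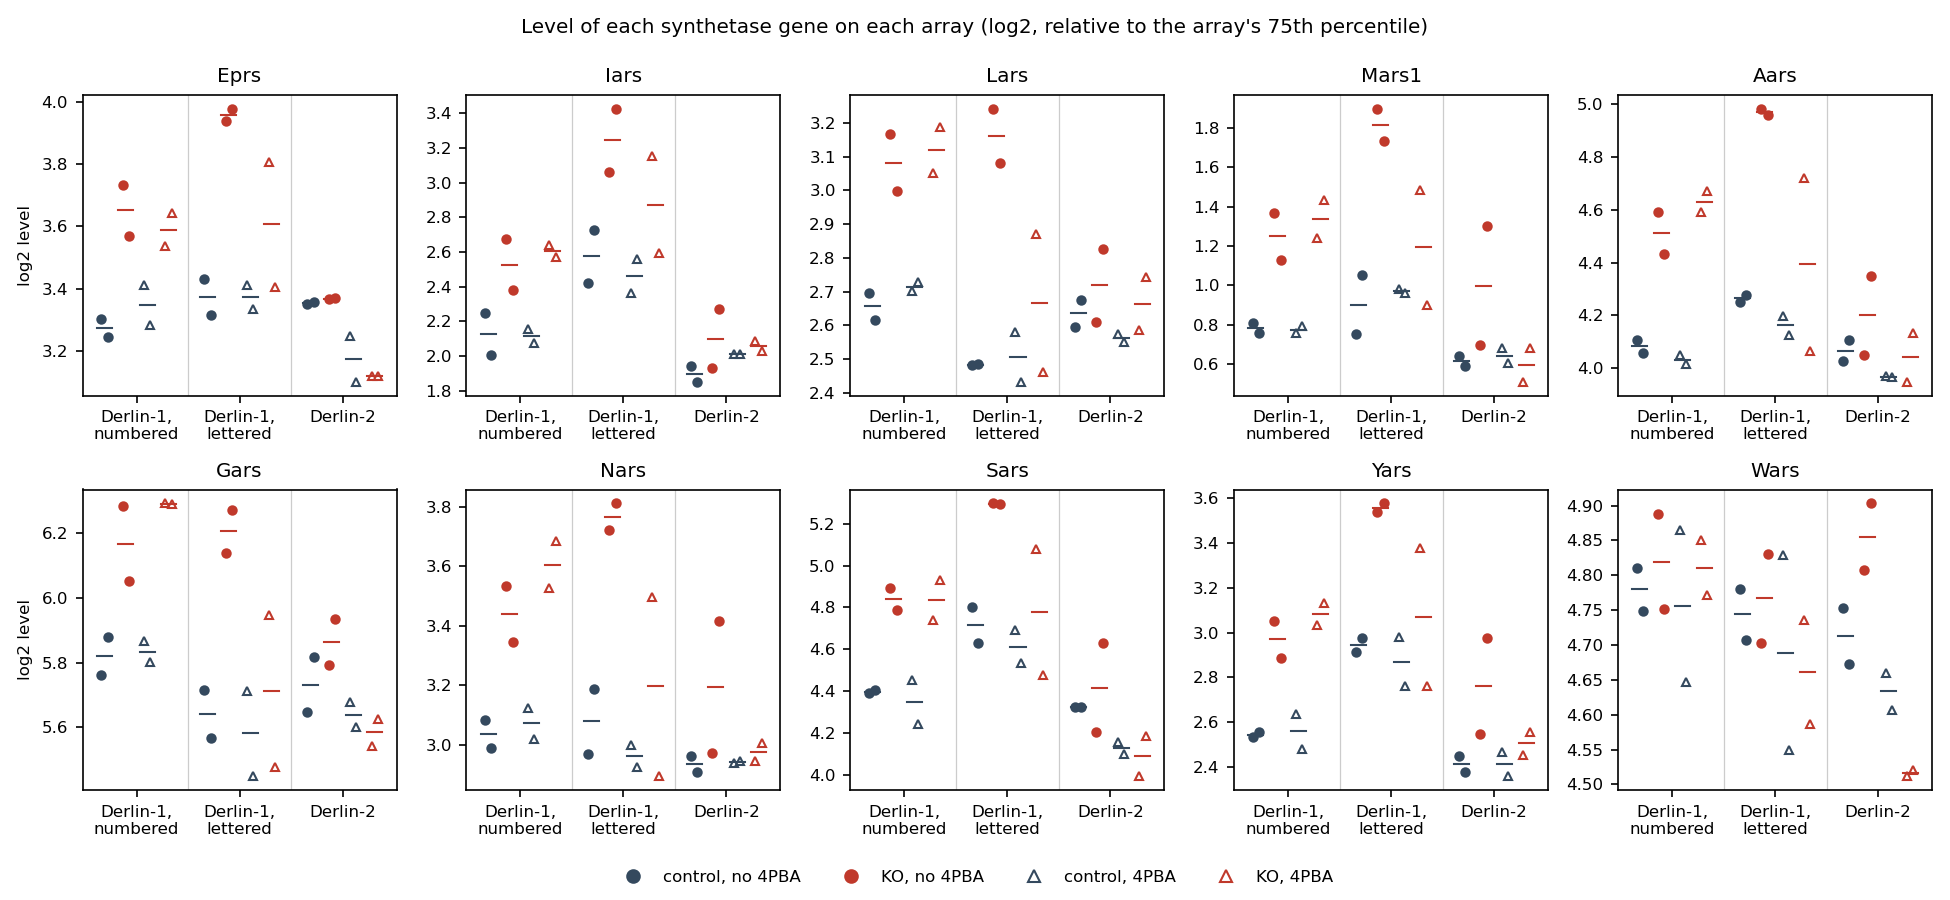
Level of each of the 10 genes (brightest probe) on each of the 24 arrays, as log2 relative to the array's 75th percentile, with circles for arrays without 4PBA, open triangles for 4PBA, red for KO and dark for control, and lines for the group means. In 9 genes the red circles lie above the dark circles of the same Derlin-1 slide, while Wars overlaps; in the lettered series 1 of the 2 red triangles, array b, lies near the controls.

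Within a single series fewer calls were made. In the numbered series alone the median of the 10 genes was 0.41 and none passed the threshold, while 0.0236% of all probes did (3786 probes had an unadjusted p under 0.05). Those 9 probes became 394 without either KO 4PBA array of the lettered series and 380 without both arrays that stood apart, with no member among them. In the lettered series alone the median was 0.64 and 2 genes passed, Lars (0.68, adjusted p = 0.039) and Eprs (0.58, adjusted p = 0.045), beside 0.656% of all probes and 0.31% as higher. That count of 2 fell to 0 or 1 when any 1 of 21 arrays was left out, and rose to 9 without KO 4PBA array a or KO 4PBA array b of that series, while 2.81% of all probes passed in each of those fits. The difference between the series had a median of 0.23 (lettered minus numbered) and passed for no member, with 0.0131% of all probes called and 1314 probes at an unadjusted p under 0.05. That median was 0.12 without numbered KO 2 and 0.34 without numbered KO 1, and the 5 probes called became 40 without lettered KO b. The count of 9 in the averaged comparison was 2 without numbered control 2, numbered KO 1, lettered control a or lettered KO a, and 5 without numbered control 1 or numbered KO 2. With only the 16 arrays of the line in the fit it was 1. The number of all probes called also moved when single arrays were left out, as given above, so these counts are not about the members alone. In each of these fits the 9 genes stayed above 0, and without both arrays that stood apart, which enter only the shared spread, 9 passed.

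In Derlin-1 KO mice given 4PBA, the synthetase genes were again above their 4PBA controls on most arrays, but none passed the threshold with all arrays included. The differences ran from 0.24 (Eprs) to 0.45 (Iars) for 9 genes and stood at 0.01 for Wars, with a median of 0.34 (0.19 without lettered KO 4PBA array a). Of all probes, 0.0604% passed, with 3768 at an unadjusted p under 0.05. Iars was the 1 member whose KO arrays lay above the controls on both slides without overlap, a pattern that 2.17% of all probes showed.

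In the genes that overlapped, other than Wars, array b of the lettered KO group is where the overlap lies. Aars read 4.59 and 4.67 in numbered KO given 4PBA, against 4.05 and 4.02 in their controls. In the lettered series Aars read 4.72 on KO array a and 4.07 on KO array b, against 4.20 and 4.13 in controls. So 3 of the 4 KO arrays were above all controls and the fourth was below its own.

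Mars1 with 4PBA showed the same order, with 1.24 and 1.44 against 0.76 and 0.79 in the numbered series, and 1.49 (a) and 0.90 (b) against 0.98 and 0.96 in the lettered series. Nars read 3.53 and 3.69 against 3.12 and 3.02, and then 3.50 (a) and 2.89 (b) against 3.0 and 2.92. Iars read 2.64 and 2.57 against 2.16 and 2.07, and 3.15 (a) and 2.59 (b) against 2.36 and 2.56; its array b lay just above the controls. Over the 10 genes, array b had a mean of -0.11 relative to the untreated controls of its slide, and array a 0.40.

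The other genes repeated this split. Eprs read 3.54 and 3.64 against 3.41 and 3.28 in the numbered series, and 3.81 (a) and 3.41 (b) against 3.41 and 3.34. Lars read 3.05 and 3.19 against 2.70 and 2.73, and 2.87 (a) and 2.46 (b) against 2.58 and 2.43. Gars read 6.29 on both numbered KO arrays against 5.87 and 5.80, and 5.95 (a) and 5.48 (b) against 5.71 and 5.45. For these genes, array a lay above both lettered controls and array b between or near them.

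Sars read 4.74 and 4.93 against 4.45 and 4.24 in the numbered series, and 5.08 (a) and 4.48 (b) against 4.69 and 4.54. Yars read 3.04 and 3.13 against 2.64 and 2.48, and 3.38 (a) and 2.76 (b) against 2.98 and 2.76. Wars, in contrast, read 4.85 and 4.77 against 4.87 and 4.65, and 4.74 (a) and 4.59 (b) against 4.83 and 4.55, with both KO arrays inside the control range on both slides.

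Without that array b, 8 of the 10 genes passed as higher, while 2.7% of all probes passed. Without both arrays that stood apart, 9 passed, beside 2.41% of all probes, with a median of 0.50. In that fit Aars differed by 0.58 (SE 0.07, adjusted p = 0.0014), Iars by 0.59 (SE 0.12, adjusted p = 0.025), Mars1 by 0.54 (SE 0.10, adjusted p = 0.014) and Nars by 0.54 (SE 0.08, adjusted p = 0.0057). Wars stood at 0.05 (adjusted p = 0.91). This left-out fit was chosen after the data were seen.

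**Figure D2:**
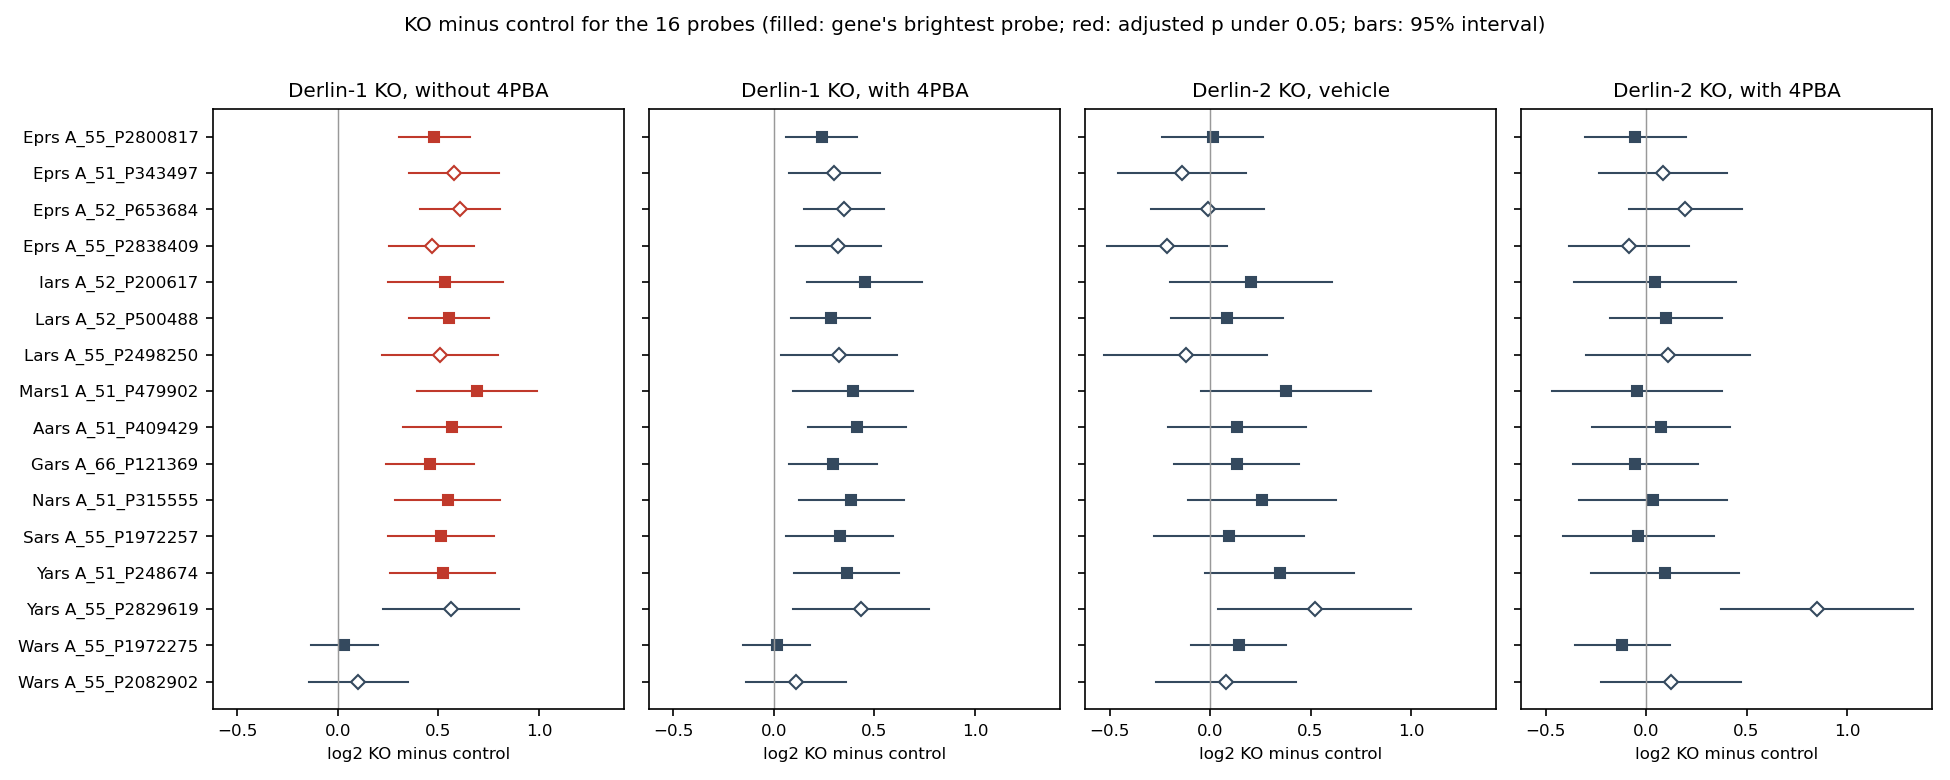
KO minus control on the log2 scale for the 16 probes in 4 comparisons, with 95% confidence intervals as bars; filled squares are a gene's brightest probe, open diamonds its other probes, and red marks an adjusted p under 0.05. All arrays are included: 9 brightest probes pass in Derlin-1 KO without 4PBA, none passes in the other 3 comparisons, and the median moves from 0.53 to 0.34 in Derlin-1 KO with 4PBA and to 0.14 (vehicle) and -0.00 (4PBA) in Derlin-2 KO.

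4PBA itself called no member in any line or genotype. In Derlin-1 controls the 10 genes had a median difference of -0.03 (4PBA minus none), with 0.0341% of all probes called and 869 at an unadjusted p under 0.05. The control median was -0.07 without lettered control 4PBA array a and 0.03 without lettered control 4PBA array b. In Derlin-1 KO, averaged over both slides, the median was -0.20 with a range of -0.27 to -0.06, and 0.0525% of all probes were called (2068 at an unadjusted p under 0.05). Without both arrays that stood apart that median was -0.07, and without lettered KO 4PBA array a it was -0.34, so its size turned on these single arrays. The medians of the slides had opposite signs, and the difference between slides was not tested. Relative to the slide mean, the 10 genes averaged 0.26 and 0.08 on numbered KO vehicle arrays 1 and 2. On numbered KO 4PBA arrays 1 and 2 they averaged 0.19 and 0.28, so these groups overlapped. In numbered KO the difference was above 0 for 7 of 10 genes, with a median of 0.08 and a range of -0.06 to 0.17. In lettered KO it was below 0 for all 10, with a median of -0.49. From KO 4PBA array a alone that lettered median was -0.23 and from array b alone -0.76, with all 10 genes below 0 on each. The KO effect with 4PBA minus that without, which uses the same arrays, had a median of -0.16 with all arrays, -0.02 without both and -0.32 without lettered KO 4PBA array a, and passed for no member; 0.0315% of all probes passed and 867 had an unadjusted p under 0.05.

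The KO effect under 4PBA was also read within each series, and the difference between the series was not tested. It had a median of 0.49 in the numbered series, where 0.118% of all probes passed, and of 0.21 in the lettered series, where 0.0131% passed, and no member passed in either. In the numbered series the median KO effect was 0.41 with vehicle and 0.49 with 4PBA, and all 9 genes other than Wars had 4PBA-treated KO arrays above 4PBA-treated controls, a pattern that 16.5% of all probes showed in that series. Without KO 4PBA array b the lettered median was 0.49, and without array a it was -0.08.

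In the Derlin-2 line given vehicle, no member passed, and 0.121% of all probes did (2646 at an unadjusted p under 0.05). All 10 differences were above 0, with a median of 0.14 (0.04 without KO array 2), and under quantile normalization 9 of the 10 were. The largest were Mars1 (0.38, SE 0.20, adjusted p = 0.74), Yars (0.35, SE 0.17, adjusted p = 0.74) and Nars (0.26, SE 0.17, adjusted p = 0.81). The 2 KO arrays were unlike each other, and the first of them is the array with Derl2 at the control level.

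Mars1 read 0.64 and 0.59 in Derlin-2 controls, 0.69 on KO array 1 and 1.30 on KO array 2. Yars read 2.45 and 2.38 in controls, 2.55 on array 1 and 2.98 on array 2. Nars read 2.96 and 2.91 in controls, 2.97 on array 1 and 3.41 on array 2. In these 3 genes array 1 lay just above the controls and array 2 well above them.

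Aars read 4.03 and 4.11 in controls against 4.05 and 4.35 in KO. Iars read 1.94 and 1.85 against 1.93 and 2.27, and Sars read 4.32 on both controls against 4.20 and 4.63. Gars read 5.65 and 5.82 against 5.79 and 5.94. Their first KO array lay inside or below the controls and their second above both.

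Lars read 2.59 and 2.68 against 2.61 and 2.83, and Wars 4.75 and 4.67 against 4.81 and 4.90. Eprs was nearly flat, with 3.35 and 3.36 in controls and 3.37 on both KO arrays. Its other 3 probes gave -0.01, -0.14 and -0.21, and the second Lars probe gave -0.12, against 0.08 for the brighter one. The mean of the 10 genes relative to the vehicle controls was 0.03 on array 1 and 0.33 on array 2. Groups lay apart without overlap, as higher, for 5 of the 10 brightest probes (Eprs, Mars1, Nars, Wars and Yars), and with 2 arrays a side 23.6% of all probes showed that pattern.

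Without both arrays that stood apart, the Derlin-2 KO group with vehicle is a single array, assumed to vary like the other groups. The median was then 0.29, still with no member past the threshold and 0.433% of all probes called. Mars1 stood at 0.68 (adjusted p = 0.101), Yars at 0.56 (adjusted p = 0.108) and Nars at 0.48 (adjusted p = 0.198), while Eprs stood at 0.02.

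With 4PBA, both Derlin-2 KO arrays had low Derl2, and the synthetase genes were spread around 0. Differences ran from -0.12 (Wars) to 0.10 (Lars) with a median of -0.00, 5 above and 5 below 0, and none passed. Of all probes 0.165% passed (1898 at an unadjusted p under 0.05). Aars read 3.97 on both controls against 3.95 and 4.13 in KO, and Mars1 read 0.68 and 0.61 against 0.51 and 0.68. For Nars the levels were 2.94 on both controls against 2.95 and 3.0, and for Yars 2.46 and 2.36 against 2.45 and 2.55. The confidence intervals of these differences still reach up to 0.42 for Aars and 0.46 for Yars, and the Derlin-1 KO differences with 4PBA, 0.41 for Aars and 0.36 for Yars, lie inside them. The other members were not compared in this way. With both arrays that stood apart left out, the intervals reach up to 0.27 and 0.32, and the Derlin-1 KO differences with 4PBA, 0.58 and 0.52, lie above them. The Derlin-2 arrays with 4PBA are the same in both fits, so their intervals narrow only through the shared spread. The error of the Derlin-1 differences is not counted in this reading, and the direct difference between the lines, given below, passed for no member. The dim second Yars probe read apart, with 0.85 (adjusted p = 0.35).

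The remaining genes of that slide showed similar closeness. Gars read 5.68 and 5.60 against 5.54 and 5.63, Sars 4.16 and 4.10 against 3.99 and 4.19, and Iars 2.01 on both controls against 2.08 and 2.03. Lars read 2.57 and 2.55 against 2.59 and 2.74, Eprs 3.25 and 3.10 against 3.12 on both, and Wars 4.66 and 4.61 against 4.51 and 4.52. Without overlap, Wars lay lower and Iars, Lars and Nars lay higher, among the 10 brightest probes. With 2 arrays a side, 18.2% of all probes lay lower in that way and 16.5% higher.

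The response of the 10 genes to 4PBA in the Derlin-2 line had a median of -0.08 in controls and -0.25 in KO, beside -0.07 and -0.09 over all genes. The KO value was -0.07 without KO vehicle array 2 and -0.37 without both arrays that stood apart. No member passed, with 0.178% and 0.144% of all probes called (2661 and 3295 at an unadjusted p under 0.05). The KO effect with 4PBA minus vehicle had a median of -0.17 with 0.0893% of probes called and 1845 at an unadjusted p under 0.05, -0.32 without both arrays that stood apart, and -0.02 without KO vehicle array 2. The Derlin-1 minus the Derlin-2 KO effect with vehicle had a median of 0.21 with 0.0472% of probes called (3310 at an unadjusted p under 0.05), 0.08 without both arrays, and 0.37 without Derlin-2 KO vehicle array 2. No member passed in either difference. With 4PBA, in a contrast of the numbered series added after the data were seen, the Derlin-1 minus the Derlin-2 KO effect was above 0 for all 10 genes, with a median of 0.47 (0.17 for Wars to 0.61 for Mars1). None passed, with all arrays or without both that stood apart, beside 0.0893% of probes called and 1798 at an unadjusted p under 0.05. In these tests the synthetase genes are not shown to respond differently in the 2 lines, nor to respond alike.

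The other cytosolic synthetases were read on the same arrays. In Derlin-1 KO without 4PBA, 2 of 11 passed as higher, Cars (cysteine; 0.92, SE 0.17, adjusted p = 0.011) and Tars (threonine; 0.56, SE 0.11, adjusted p = 0.014), and the median was 0.10. Dars (0.28), Rars (0.14) and Vars (0.12) did not pass, and Kars (-0.03), Qars (-0.04), Hars (0.01) and Farsa (0.00) were close to 0. Dars, Kars, Qars and Rars belong to the multisynthetase complex, as do Eprs, Iars, Lars and Mars1, and the difference between these 2 sets of genes was not tested.

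The scaffold proteins of that complex (Aimp1, Aimp2 and Eef1e1) passed in 0 of 3, with a median of -0.01. The listed mitochondrial synthetases, which have nuclear genes of their own and charge tRNAs inside mitochondria, passed in 1 of 17, beside 4.94% of all probes. Aars2 was lower (-0.29, SE 0.07, adjusted p = 0.042), and the median of the list was -0.01. Translation elongation factors passed in 0 of 6, with a median of 0.00.

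Genes of the stress response rose on the same arrays. Of 13 integrated stress response genes, 11 rose in Derlin-1 KO without 4PBA, with a median of 1.31. The largest were Trib3 (3.32, SE 0.45, adjusted p = 0.0040), Eif4ebp1 (2.27, SE 0.33, adjusted p = 0.0050), an inhibitor of cap-dependent translation, and Atf3 (2.25, SE 0.45, adjusted p = 0.014), a stress-induced transcription factor. Atf4 itself, which is regulated mostly in translation, rose by 0.45 (SE 0.12, adjusted p = 0.041). The eIF2alpha kinases passed in 0 of 4, with a median of 0.06; Eif2ak2, which is also known as PKR and senses double-stranded RNA, had the largest difference (0.73, adjusted p = 0.061) and passed without both arrays that stood apart (adjusted p = 0.046). ER chaperones and other XBP1 or ATF6 targets rose in 10 of 10, with a median of 0.94, led by Sdf2l1 (1.80, adjusted p = 0.0072), Herpud1 (1.32, adjusted p = 0.0040) and Hspa5 (1.23, adjusted p = 0.0052), which encodes the chaperone BiP.

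With 4PBA and all arrays, none of these lists had a gene past the threshold in Derlin-1 KO, with medians of 0.91 for the stress response, 0.57 for the chaperones and 0.71 for the microglia markers. Without both arrays that stood apart, 9 of 13, 9 of 10 and 7 of 10 passed as higher.

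In the Derlin-2 line with vehicle, the chaperone list had a median of 0.59 in KO with none of 10 past the threshold, and of 0.81 with 1 of 10 past it without both arrays that stood apart. Its mean was 0.23 above the controls on array 1 and 0.69 on array 2. The integrated stress response list had a median of 0.04, and 0.12 without both arrays, with -0.06 on array 1 and 0.17 on array 2. With 4PBA the Derlin-2 KO arrays read 0.18 and 0.36 for the stress response list and 0.16 and 0.36 for the chaperones, while the synthetase mean was -0.10 and -0.01.

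**Figure D3:**
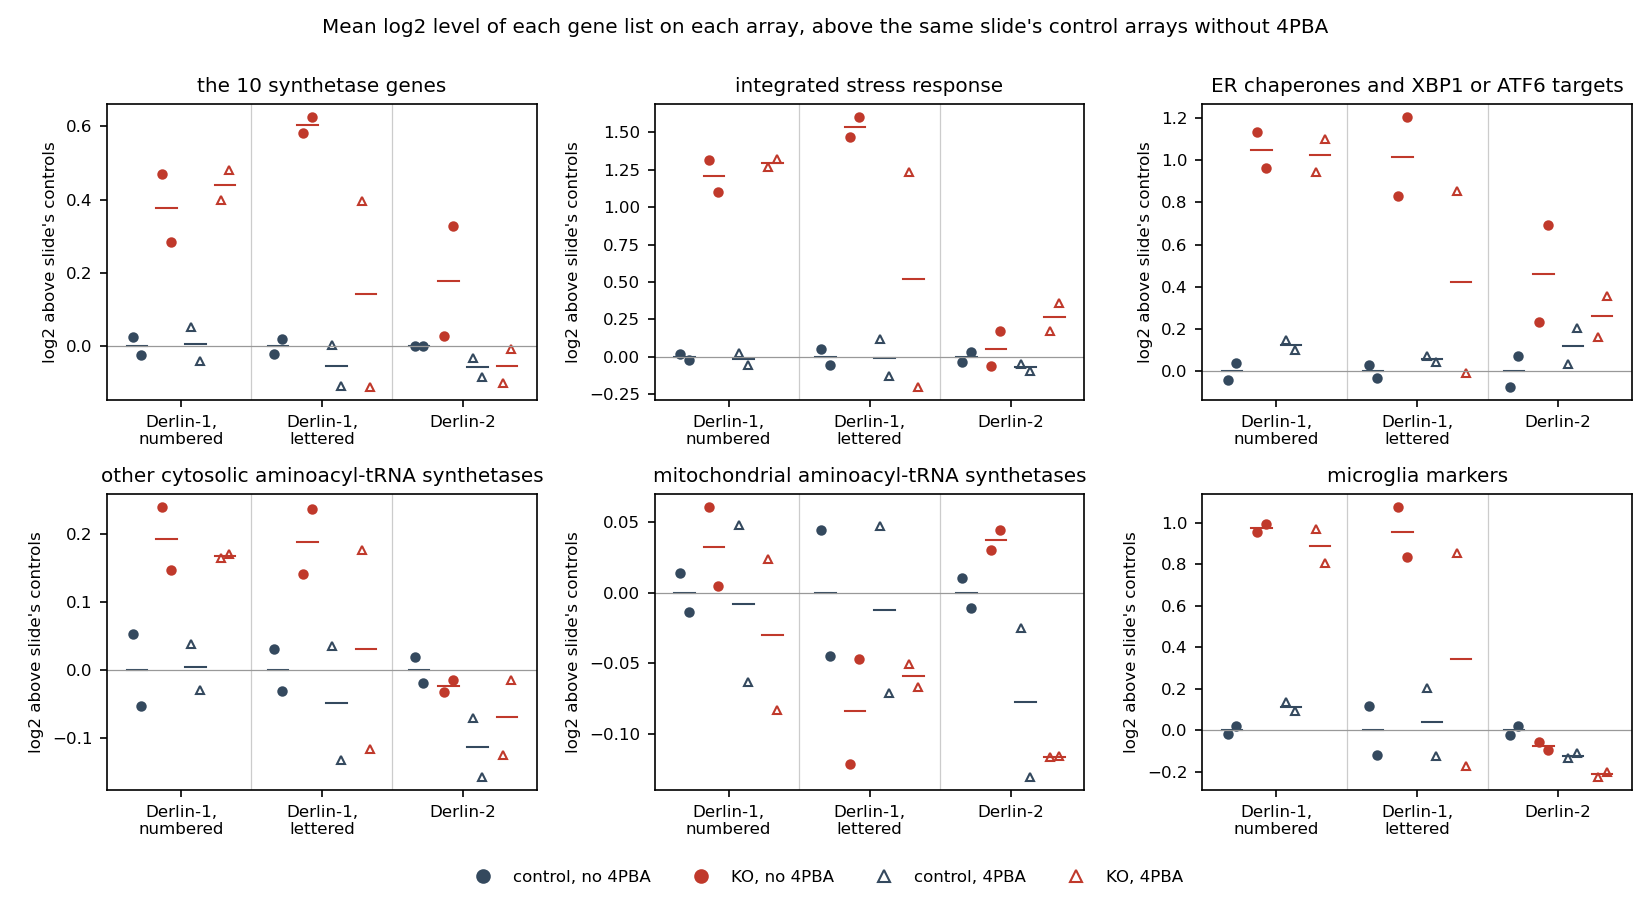
Mean log2 level of 6 gene lists on each array, minus the mean of the control arrays without 4PBA on the same slide; circles are arrays without 4PBA, open triangles 4PBA, red KO, dark control, and lines are group means. The 10 synthetase genes reach 0.28 to 0.62 on 7 of the 8 Derlin-1 KO arrays and -0.11 on lettered KO 4PBA array b, which is also low for the stress, chaperone and microglia lists.

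Cell type markers moved on the same arrays, and bulk tissue cannot tell fewer or more cells of a type from less or more RNA per cell. Microglia markers rose in 7 of 10 in Derlin-1 KO without 4PBA, with a median of 1.23, among them Trem2 (1.77), Aif1 (1.49) and C1qb (1.43). The mean of that list ranged from -0.12 to 0.12 in the controls without 4PBA and from 0.84 to 1.07 in the KO arrays without 4PBA. All 10 markers were above background on every array. Interferon-stimulated genes rose in 9 of 12, with a median of 1.15, and in 12 of 12 without both arrays that stood apart, led by Usp18 (1.95), Irf7 (1.82) and Ifit1 (1.69). In Derlin-2 KO with vehicle the microglia list had a median of -0.14, and -0.22 without both arrays, and no marker passed in either.

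Granule neuron markers fell in 2 of 9, Gabra6 (-0.765, adjusted p = 0.012) and Neurod1 (-0.68, adjusted p = 0.0082), while 2.53% of all probes passed as lower. The median of these markers was -0.31, with 8 of 9 below 0. With both arrays that stood apart left out, 4 of 9 passed, with Grin2c (-0.33) and Zic1 (-0.29) added. Gfap, an astrocyte marker that rises in reactive astrocytes, was the 1 of 9 astrocyte and Bergmann glia markers that passed (1.24, adjusted p = 0.0051). Purkinje cell markers passed in 0 of 9 (median -0.08), oligodendrocyte markers in 0 of 8 (-0.13), endothelial markers in 0 of 4 (0.05) and blood markers in 0 of 2 (-0.26). Choroid plexus markers passed in 0 of 4 with a median of -0.97, and their mean varied from -3.46 to 2.14 between arrays. The part of cell composition in the synthetase differences was not tested.

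Among themselves the synthetase genes tracked each other. Over the 24 arrays, with the mean of each slide removed, the 45 pairs of genes had a median Pearson r of 0.91, from 0.28 (Wars and Iars) to 0.98 (Nars and Yars). Without Wars the lowest pair was Sars and Iars at 0.79, and the 9 pairs with Wars had a median of 0.43. The median over all pairs was 0.94 on the 16 arrays of the Derlin-1 line and 0.76 on the 8 of the Derlin-2 line. These points share 3 slides and 12 groups, so the values describe these arrays. Without both arrays that stood apart the median over all pairs was 0.91, the lowest pair without Wars 0.79, and the medians of the lines 0.94 and 0.79. Different probes of 1 gene correlated at 0.87 to 0.90 for Eprs, 0.87 for Lars, 0.73 for Yars and 0.34 for Wars.

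**Figure D4:**
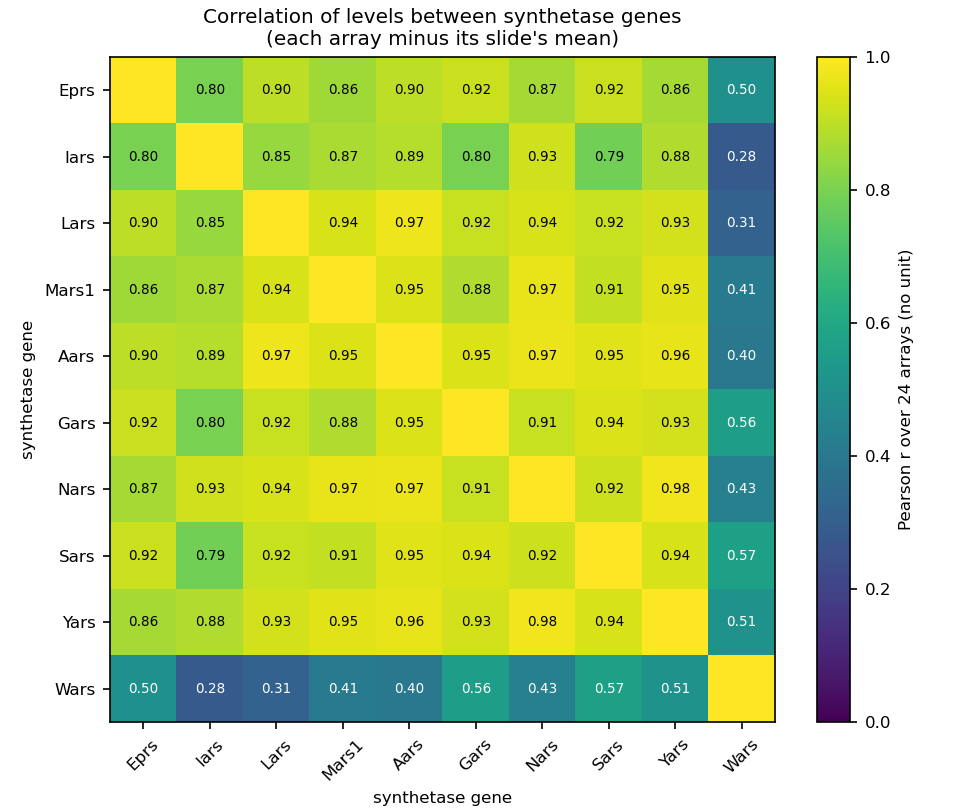
Pearson r between each pair of the 10 genes (brightest probe) over the 24 arrays, after subtracting the mean of the 8 arrays of each slide; both axes list the genes, those of the multisynthetase complex first, and colour gives r from 0 to 1. The block of 9 genes lies at 0.79 to 0.98 and the row of Wars at 0.28 to 0.57.

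The genes whose levels were most like the mean of the 10 members, of 14256 genes above background on all arrays, were Shmt2 (r = 0.97), Cars (0.97), Atf5 (0.96), Tars (0.96), Sec23b (0.96), Arl14ep (0.95), Asns (0.95) and Kctd15 (0.95). Shmt2 makes glycine and one-carbon units in mitochondria, Asns makes asparagine, Atf5 is a transcription factor of the stress response and Sec23b is a coat protein of vesicles leaving the ER. Because that mean is itself higher in Derlin-1 KO, genes chosen this way tend to be higher there too, and their differences are given as a description: on the log2 scale, 1.36 for Shmt2, 0.92 for Cars, 1.31 for Atf5, 0.56 for Tars, 0.37 for Sec23b, 0.60 for Arl14ep, 0.79 for Asns and 0.62 for Kctd15. On the 8 arrays of the Derlin-2 line alone, Asns had r = 0.96 and Sec23b 0.92, while Arl14ep had 0.56. Without both arrays that stood apart, the 8 genes had r of 0.95 to 0.97. The lowest values were those of Vwa7 (-0.91), Psd (-0.91) and Sema3e (-0.90), the last a guidance ligand, with a difference of -1.58 in Derlin-1 KO without 4PBA.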

How the data were processed

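Total RNA of mouse cerebellum was labelled with Cy3, 150 ng for each of 24 samples, and hybridised to single-colour arrays. Per the file headers and the submitters' processing notes, the authors deposited scanner output of Agilent Feature Extraction 10.7.1.1; its processed signal, an intensity on a linear scale, is already background-subtracted. The table of values deposited by the authors holds the same intensities, differing by at most 1.74e-06 on the log2 scale for probes with a single spot, so the log2 values used here were computed from the deposited intensities.

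Log2 processed signal minus the array's 75th percentile over 56605 probes was used. A probe was kept if 1 group or more had it well above background on both its arrays; outlier spots were set missing, spots of a probe averaged. Group means were fitted over all 24 arrays in limma 3.58.1 (R 4.3.3), with 12 residual and 1.94 prior degrees of freedom, and p-values adjusted by Benjamini-Hochberg over all probes. The threshold was 0.05, two-sided. The number of arrays limits the precision.

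Named are all member probes, the 3 largest called genes of each other list, the targeted genes, markers, the 8 genes most and 3 least like the members. Other genes named with values (Atf4, Eif2ak2, Dars, Rars, Vars, Kars, Qars, Hars, Farsa) were chosen after their values were seen. The members and lists were chosen with earlier results of these data known. The normexp alternative used the median signal, the foreground column used here. Transcript accessions gave 32994 probes a RefSeq symbol, and promoters are of build GRCm38.p6; array coordinates were not used. Alternatives tried were normalization, background correction, dim-probe filter, probe rule, fit scope, replicate block, spread model, each array left out and each series alone.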

Additional observations from a re-analysis of the deposited data

How the results depend on the processing

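Over all settings tried, no difference reversed its direction past the threshold. The count of members called moved by over 1.5 times in 9 of 39 settings for Derlin-1 KO without 4PBA and in 33 of 37 for its lettered series. The other 12 comparisons had a count of 0, which says little of stability, and 2 of their 445 settings gave another count. In Derlin-1 KO without 4PBA the count of 9 became 1 with the arrays of the line alone, 0 in the numbered series alone and 2 in the lettered series alone, and ranged from 2 to 9 with 1 array left out in turn. In Derlin-1 KO with 4PBA the count of 0 ranged from 0 to 8 with 1 array left out and became 9 without the arrays labelled Derlin-1 KO 4PBA b and Derlin-2 KO vehicle 1.

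In the lettered series without 4PBA, the count of 2 became 4 under quantile normalization, 5 with the 75th percentile over probes above background on all arrays, and 6 with normexp background correction, with probes above background on all arrays, with 1 probe per gene and with a trended, robust spread. It became 7 with the mean of a gene's probes, 0 without a filter on dim probes and with the arrays of the line alone, and 9 without both arrays that stood apart. With 1 array left out it ranged from 0 to 9. The cause was not tested. Counts over all probes moved too: 1881 in Derlin-1 KO without 4PBA became 2232 without both arrays and ranged from 404 to 3243 with 1 array left out, 250 in its lettered series ranged from 0 to 2403, and without both arrays 23 in Derlin-1 KO with 4PBA became 917 and 46 in Derlin-2 KO with vehicle became 164.

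Arrays of different groups share replicate numbers, but their deviations correlated at -0.30 to 0.76 over 18 pairs of groups, so the numbers were not taken as pairs. With the replicate block the counts were 9 in Derlin-1 KO without 4PBA, 2 in its lettered series and 0 in the other 12 comparisons, the same as without the block, and 2176 of all probes were called in Derlin-1 KO without 4PBA.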
